A study of Homo sapiens with 2 samples.

Results

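The solute carriers are the membrane proteins whose gene symbols begin with SLC and a family number. The members described here are the genes that the array's annotation names alone for a probe set, with a symbol beginning with SLC and a digit, and whose higher deposited signal reached 12.2, the median of all signals in the study. SLC2A1, SLC7A5, SLC3A2, SLC7A11 and SLC34A2 were left out by the same rule. It gave 249 genes on 439 probe sets, out of 371 such genes on 789 probe sets whatever their signal and 12952 genes measured in the same way over the whole array. The other 122 SLC genes stayed under that signal on both arrays. The members were therefore chosen on the measured signals, so that their being above 12.2 is no finding.

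The study compared CL1-0 cells stably transduced with an FDFT1 expression vector with CL1-0 cells stably transduced with a control vector, both after 2 weeks of puromycin selection. The CL1-0 line was established from a human lung adenocarcinoma, and its labels give a type II alveolar origin. Squalene synthase, the product of FDFT1, joins farnesyl units into squalene and so turns the mevalonate pathway towards sterols. Total RNA of each was hybridised to 1 Affymetrix expression array, and the deposited values are MAS5 signals, a linear brightness per probe set. There were no replicates, so each difference compares 2 arrays and carries no p-value, and FDFT1 itself was not analysed here.

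Solute carriers move small molecules and ions through a membrane without splitting ATP themselves. Some let a solute run down its own gradient, some couple it to sodium or protons, and some exchange one solute for another. The numbered families group them by sequence and, broadly, by cargo: SLC1, SLC7 and SLC38 carry amino acids, SLC2 sugars, SLC25 the metabolites that cross the inner mitochondrial membrane, SLC30 and SLC39 zinc, and SLC35 the nucleotide sugars used in the Golgi. In lung epithelium they are known for the uptake of nutrients, the handling of ions and fluid, and the supply of phosphate and choline for surfactant.

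The brightest signals came from SLC25A5, SLC25A3, SLC38A2 and SLC2A3, carriers of ADP and ATP, phosphate, amino acids and glucose, and these differed little between the arrays. Of the 249 genes, 134 reached a signal of 99.4, the 75th percentile of all signals, on both arrays, 6 on 1 array and 109 on neither. The share on both was 53.8%, against 59.4% of all measured genes, so the members as a set were no brighter than the array. After the arrays were put at an equal level, SLC26A4 was the single member at least 2-fold higher with FDFT1 (0.402% of members) and none was 2-fold lower, against 0.664% and 0.656% of all measured genes. For 221 of the 249 the log2 difference, FDFT1 minus control vector, was under 0.5 in size. The signals describe transcripts, and transport itself was not measured.

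Upstream windows from RefSeq (GRCh38.p14) are shown for the 3 members with the brightest signals, for SLC26A4, and for the dimmest pair of a list of transporters known mainly from other tissues, to show what the letters counted below look like in bright and dim genes. Each run holds the 250 bases before the annotated start, from 5′ to 3′ on the strand of the gene. Capitals mark the letters GGGCGG of a GC box and TATAAA of a TATA box, read on both strands. SLC25A5 lies at chrX:119468194-119468443 on the plus strand, SLC25A3 at chr12:98593436-98593685 on the plus strand, SLC38A2 at chr12:46372774-46373023 on the minus strand, SLC26A4 at chr7:107660578-107660827 on the plus strand, SLC17A8 at chr12:100356824-100357073 on the plus strand and SLC2A2 at chr3:171026721-171026970 on the minus strand.
SLC25A5: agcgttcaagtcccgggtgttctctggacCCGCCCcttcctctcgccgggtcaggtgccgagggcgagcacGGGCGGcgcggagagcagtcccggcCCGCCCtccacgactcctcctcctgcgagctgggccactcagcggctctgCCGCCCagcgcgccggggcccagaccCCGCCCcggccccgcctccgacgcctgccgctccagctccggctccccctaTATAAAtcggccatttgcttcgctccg
SLC25A3: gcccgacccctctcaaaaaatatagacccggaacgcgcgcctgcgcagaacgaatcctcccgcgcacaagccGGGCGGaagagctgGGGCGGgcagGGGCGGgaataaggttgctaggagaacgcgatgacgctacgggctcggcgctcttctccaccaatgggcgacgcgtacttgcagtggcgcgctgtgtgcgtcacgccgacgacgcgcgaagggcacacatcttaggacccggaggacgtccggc
SLC38A2: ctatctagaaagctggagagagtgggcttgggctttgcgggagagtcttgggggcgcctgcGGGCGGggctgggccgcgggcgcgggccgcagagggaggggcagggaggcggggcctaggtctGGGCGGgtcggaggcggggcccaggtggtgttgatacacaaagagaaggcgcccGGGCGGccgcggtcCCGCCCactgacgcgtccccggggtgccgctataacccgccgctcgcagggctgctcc
SLC26A4: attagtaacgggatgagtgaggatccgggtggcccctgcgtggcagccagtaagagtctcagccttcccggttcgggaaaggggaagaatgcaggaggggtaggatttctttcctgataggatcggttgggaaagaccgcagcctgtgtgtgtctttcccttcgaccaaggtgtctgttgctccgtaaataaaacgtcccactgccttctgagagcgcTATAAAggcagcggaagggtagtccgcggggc
SLC17A8: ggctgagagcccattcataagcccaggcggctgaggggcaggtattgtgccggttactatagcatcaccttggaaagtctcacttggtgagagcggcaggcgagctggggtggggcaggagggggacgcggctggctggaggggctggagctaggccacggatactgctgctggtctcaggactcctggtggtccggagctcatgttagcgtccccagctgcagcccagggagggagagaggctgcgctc
SLC2A2: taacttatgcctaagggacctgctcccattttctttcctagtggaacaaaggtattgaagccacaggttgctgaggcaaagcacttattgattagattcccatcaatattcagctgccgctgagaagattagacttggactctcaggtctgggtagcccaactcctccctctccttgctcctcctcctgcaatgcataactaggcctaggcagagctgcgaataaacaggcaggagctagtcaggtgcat

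The windows of SLC25A5, SLC25A3 and SLC38A2 held 5, 3 and 4 GC boxes and 30, 34 and 26 CpG dinucleotides, and that of SLC25A5 also held 1 TATA box. The window of SLC26A4 held no GC box, 1 TATA box and 14 CpG dinucleotides. The windows of SLC17A8 and SLC2A2, which stayed under the floor, held neither box and 10 and 2 CpG dinucleotides. RefSeq gave 155 windows for 112 of the 134 members that reached 99.4 on both arrays, 134 windows for 93 of the other 115 members, and 116 windows for 93 of the 122 SLC genes under the floor. A GC box stood in 71.6%, 55.2% and 31.9% of these windows, against 42.6% of all 35116 windows in the table. The TATA box letters stood in 4.52%, 6.72% and 16.4%, against 10.7%, and the median number of CpG dinucleotides was 22, 15 and 5, against 11. As the sets were formed on the signals, these shares are a description, and genes with several windows count several times.

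The letters TCACNCCAC of a sterol regulatory element, the site of the SREBP factors, were found on either strand upstream of SLC1A4, SLC25A40 and SLC67A1 alone among the members with a window. The amino acid response letters TGATGCAA, bound by ATF4 dimers, were found upstream of SLC1A3 and SLC1A5. Of all windows, 0.883% and 0.772% hold these letters. A match is a string of letters and not a shown site.

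The arrays were much alike. The Pearson correlation of log2 signals between the arrays was 0.989 over the 14133 probe sets that reached 99.4 on at least 1 of them. Among probe sets above the floor on both arrays the median log2 difference, FDFT1 minus control vector, was -0.11. This shift was removed before any difference was taken, whereas signals are given as deposited, so the signals alone show smaller increases and larger decreases. After that step a signal under the floor of 12.2 was set to the floor, and the difference is then a bound. Each gene is given by the brightest of its probe sets. Probe sets differ in brightness at the same amount of RNA, so the signals say which carriers were bright and are no order of transcript amounts. Markers of the labelled cell type were weak: of 10 type II markers on the array 7 were measured, SFTPC had signals of 16.9 in FDFT1 cells and 29.3 in control vector cells, SFTPB 35.3 with FDFT1 and 32.0 with control vector, NKX2-1 29.3 with FDFT1 and 31.1 with control vector, and SFTPD, NAPSA and SLC34A2 stayed under the floor. ETV5 (281 with FDFT1 and 383 with control vector) and LPCAT1 (787 with FDFT1 and 934 with control vector) were the type II markers above 99.4, and the signals of the list summed to 1279 with FDFT1 and 1552 with control vector. The epithelial markers EPCAM (14.4 with FDFT1 and 5.63 with control vector) and KRT8 (18.8 with FDFT1 and 15 with control vector) were dim, as was KRT18 (12.1 with FDFT1 and 20.1 with control vector), and CDH1 and KRT19 stayed under the floor. EPCAM, KRT8 and KRT18 each rested on 1 measured probe set, and probe sets naming several genes were not used, so these values are uncertain. Of the surfactant protein genes that could be assessed, SFTPD was thus under the floor, and SFTPB and SFTPC were above it but under 99.4. SFTPA1 and SFTPA2 were not assessed, as no probe set is annotated to either gene alone. Also measured under 99.4 were the type II markers ABCA3 (55.6 with FDFT1 and 79.9 with control vector) and LAMP3 (58.8 with FDFT1 and 53.0 with control vector). Of markers of other cells, 1 of 3 airway, 2 of 3 fibroblast, 1 of 3 endothelial and 3 of 4 blood genes were measured. None of these reached 99.4, and no epithelial marker did. COL1A1 (83.0 with FDFT1 and 65.5 with control vector) and CD79A (40.6 with FDFT1 and 50.5 with control vector) were brighter than each epithelial marker. The rest of the measured ones had at most 22.7 with FDFT1 (PECAM1) and 26.7 with control vector (MUC5AC).

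The error of a probe set's difference was taken from genes with at least 2 probe sets in the same signal range, by setting the 2 brightest against each other and dividing the SD of their gap by the square root of 2. On the log2 scale this error was 0.10 for genes with a mean log2 signal of 11 or more. It grew to 0.16 at 9 to 11, 0.22 at 7 to 9 and 0.31 at 5 to 7, and was 0.51 below 5. It covers probes and transcript forms, not cultures. Differences larger than 2 such errors were found for 15 of the 249 members (6.02%), 6 higher and 9 lower with FDFT1, against 7.12% of all 12952 measured genes. By signal range the shares differed. They were 12.5% of 8 members against 10.9% of all genes at 11 or more, and 16.3% of 43 against 7.45% at 9 to 11. At 7 to 9 they were 2.86% of 70 members against 8.22%, at 5 to 7 7.81% of 64 against 6.52%, and below 5 0% of 64 against 4.60%.

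**Figure D1:**
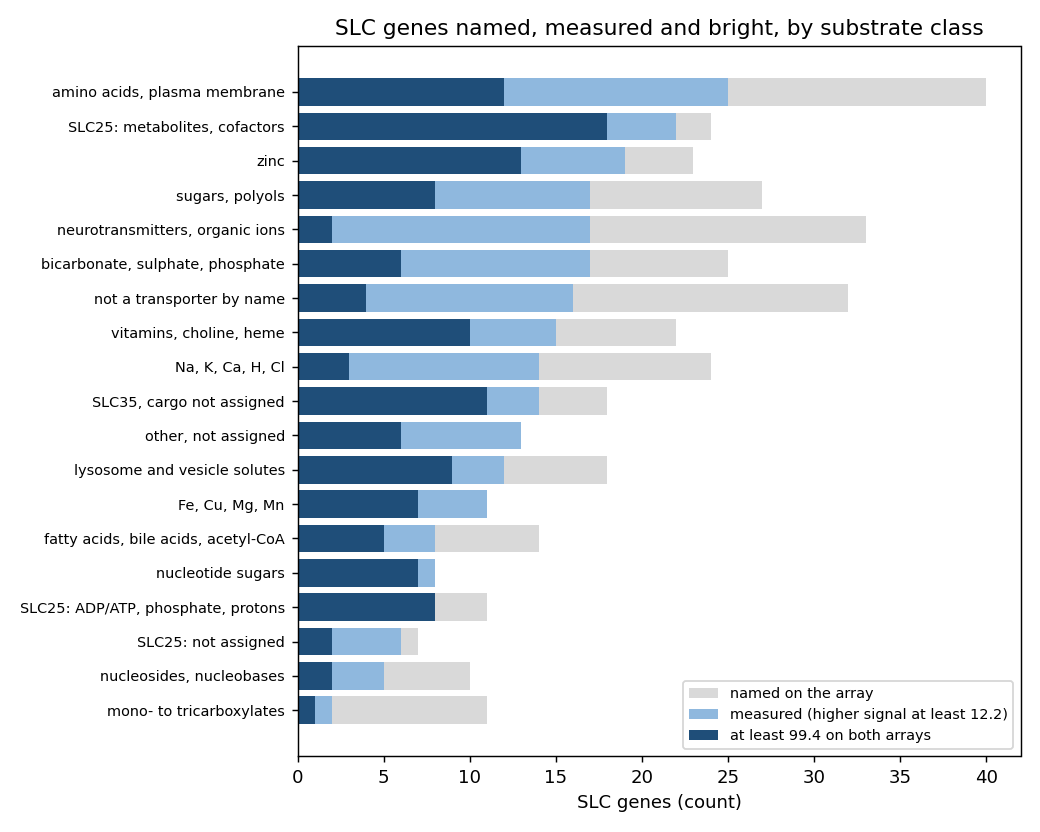
Number of SLC genes in each substrate class, as horizontal bars from 0: all genes named on the array (grey), those measured with a higher signal of at least 12.2 (light blue), and those at 99.4 or above on both arrays (dark blue). Of 40 genes for amino acids at the plasma membrane 25 were measured and 12 were bright on both arrays, whereas of 33 for neurotransmitters and organic ions 17 were measured and 2 were bright.

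The members were grouped by cargo from textbook knowledge, which gave 18 classes of 233 transporter genes and 1 class of 16 members that are not transporters by their names. Counts of members above and below 0 in each class were taken after the arrays were put at an equal level. Of all measured genes, 49.2% were then above 0 and 50.8% below. The SLC25 carriers of the inner mitochondrial membrane were the largest family on the array: 39 of its 45 genes were measured and 31 were bright on both arrays. In the SLC35 family 22 of 26 were measured and 18 were bright, and in the SLC39 zinc importers 12 of 14 and 8. At the other end stood the SLC22 organic ion transporters, with 10 of 18 measured and 1 bright, and the SLC6 sodium-coupled family, with 11 of 18 and 2. Genes of SLC14 (urea), SLC32 (vesicular GABA) and SLC51 (bile acid export) were all under the floor.

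A list of transporters known mainly from other tissues shows what signals such genes had here. Of 33 of these genes on the array, 12 were measured and 1 reached 99.4, SLC27A5 of liver, with signals of 115 in FDFT1 cells and 121 in control vector cells. The other 11 had signals of at most 46.5 in FDFT1 cells and 39.5 in control vector cells. SLC5A2, the glucose transporter of kidney, had 25.6 with FDFT1 and 22.1 with control vector, SLC6A3, the dopamine transporter, 17.8 with FDFT1 and 19.3 with control vector, and SLC24A1 of the retina 26.4 with FDFT1 and 29.5 with control vector. SLC6A4, the serotonin transporter, stayed under the floor at 1.22 with FDFT1 and 3.25 with control vector. Dim members lay in the same range of signals as these genes.

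**Figure D2:**
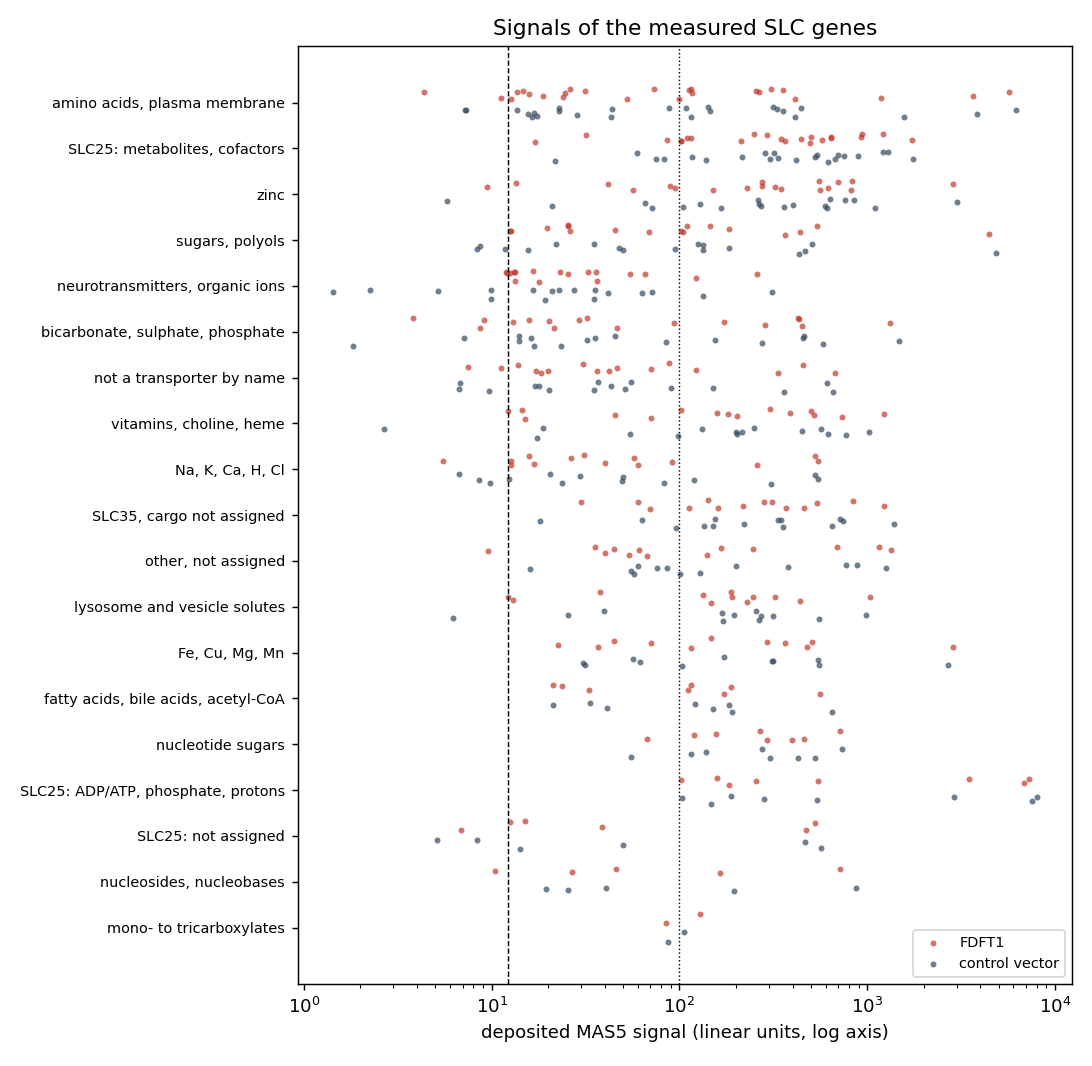
Deposited MAS5 signals of the 249 measured SLC genes by substrate class on a log axis, 1 point per gene and array, FDFT1 (red) above control vector (dark) in each class. The dashed line is the floor of 12.2 and the dotted line 99.4, the 75th percentile of all signals; the mitochondrial ADP, ATP and phosphate carriers and a few amino acid, sugar, zinc and iron carriers lie furthest to the right in both groups.

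The mitochondrial carriers for adenine nucleotides, phosphate and protons were bright throughout, with 8 of 11 genes measured and all 8 at 99.4 or above on both arrays. SLC25A5, the ADP/ATP translocase that exports ATP to the cytosol of dividing cells, had signals of 7246 in FDFT1 cells and 8038 in control vector cells, a log2 difference of -0.04. SLC25A3, which brings in the phosphate for ATP synthesis, had 6859 with FDFT1 and 7576 with control vector, a difference of -0.04. SLC25A4, the translocase known from muscle and heart, had 548 with FDFT1 and 537 with control vector, a difference of 0.14. The export of ATP and the entry of phosphate were thus covered by genes that differed by less than 1 probe set error. SLC25A24, which exchanges ATP-magnesium for phosphate, was higher with FDFT1 at 3498 in FDFT1 cells against 2883 in control vector cells, a difference of 0.39 with an error of 0.10. Its second probe set, at signals under 20, lay the other way, and the mean of both was 0.04. SLC25A30, related to the uncoupling proteins, was at 0.42 (184 with FDFT1 and 148 with control vector, error 0.22), and SLC25A23, another ATP-magnesium carrier, at -0.15 (158 with FDFT1 and 188 with control vector). SLC25A31 of testis, SLC25A27 and SLC25A41 stayed under the floor. The class had 4 members above 0 and 4 below, with a median of 0.03, against a median of -0.0047 for all measured genes.

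The mitochondrial carriers of metabolites and cofactors had 22 of 24 genes measured and 18 bright on both arrays. SLC25A13, an aspartate and glutamate exchanger of the malate-aspartate shuttle, had signals of 1739 in FDFT1 cells and 1744 in control vector cells, a difference of 0.10. SLC25A33, a carrier of pyrimidine nucleotides, had 1211 with FDFT1 and 1217 with control vector, a difference of 0.10. SLC25A39, which imports glutathione, was lower at 942 in FDFT1 cells against 1287 in control vector cells, a difference of -0.34 on its only probe set (error 0.16). Carriers for the main exchanges with the cytosol were all above 99.4: SLC25A1 for citrate (365 with FDFT1 and 417 with control vector, -0.09), SLC25A11 for oxoglutarate (573 with FDFT1 and 675 with control vector, -0.13) and SLC25A20 for acylcarnitines (292 with FDFT1 and 317 with control vector, -0.02). Among the amino acid carriers, SLC25A15 for ornithine had 643 with FDFT1 and 754 with control vector, SLC25A38 for glycine 639 with FDFT1 and 695 with control vector and SLC25A44 for branched-chain amino acids 497 with FDFT1 and 619 with control vector, with differences of -0.12, -0.01 and -0.21. SLC25A26, the carrier of S-adenosylmethionine, had 445 with FDFT1 and 529 with control vector, and SLC25A51, the carrier of NAD, 109 with FDFT1 and 117 with control vector.

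SLC25A22, a glutamate carrier, showed the largest difference of all members with a signal above 99.4. Its single probe set gave 115 in FDFT1 cells against 216 in control vector cells, a difference of -0.81 or 1.75-fold lower, with an error of 0.22. It was the single one of 140 members to pass 1.5-fold when the floor was raised to 99.4 (0.714%), where 0.594% of all 8076 genes were at least 1.5-fold lower and 1.02% at least 1.5-fold higher. SLC25A42, a coenzyme A carrier, was at -0.79 at lower signals (31.8 with FDFT1 and 59.4 with control vector, error 0.31). SLC25A10, the dicarboxylate carrier, was at -0.39 (213 with FDFT1 and 302 with control vector), and SLC25A29, a carrier of basic amino acids, at 0.41 (102 with FDFT1 and 82.3 with control vector) with 1 of 3 probe sets above 0. The class had 7 members above 0 and 15 below, with a median of -0.09. SLC25A2 and SLC25A18 stayed under the floor.

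Of SLC25 genes without an assigned cargo, 6 of 7 were measured, with a median of -0.01. SLC25A46, a protein of the outer mitochondrial membrane, had 469.6 with FDFT1 and 567 with control vector, a difference of -0.17, SLC25A43 524 with FDFT1 and 466 with control vector, a difference of 0.27, and SLC25A35 38.5 with FDFT1 and 49.8 with control vector, a difference of -0.26. The pyruvate carrier, which belongs to another family, was measured too: MPC1 had 252 with FDFT1 and 330.4 with control vector and MPC2 1562 with FDFT1 and 1671 with control vector, with differences of -0.29 and 0.009.

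Of 40 genes for amino acid transport at the plasma membrane 25 were measured and 12 were bright on both arrays, with the highest signals for the sodium-coupled system A carriers. SLC38A2, which takes up small neutral amino acids and is known to be induced by amino acid shortage, had signals of 5717 in FDFT1 cells and 6207 in control vector cells, a difference of -0.01, and its 3 probe sets, all of kinds that can match several transcripts, lay between -0.03 and 0.01. SLC38A1, its close relative for glutamine, had 3633 with FDFT1 and 3843 with control vector, a difference of 0.03, while its dimmest probe set lay at -0.69. SLC7A1, the main importer of arginine and lysine, was at -0.32 (1177 with FDFT1 and 1577 with control vector, error 0.16), with 2 of 3 probe sets below 0. These signals were close on both arrays for system A and lower with FDFT1 for SLC7A1 by less than 2 errors.

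Other amino acid carriers were dimmer. SLC1A5, the glutamine carrier ASCT2, was at -0.31 on 1 probe set (265 with FDFT1 and 355 with control vector, error 0.22), and its relative SLC1A4 at -0.22 (116 with FDFT1 and 146 with control vector). SLC7A6, which exchanges cationic for neutral amino acids, was at -0.27 (255 with FDFT1 and 331 with control vector). SLC6A8, the creatine transporter, was at -0.21 with 3 of 3 probe sets below 0 (354 with FDFT1 and 442 with control vector); other probe sets name SLC6A8 together with its pseudogenes and were not used, so its value is uncertain. SLC6A6 for taurine was at 0.06 (306 with FDFT1 and 316 with control vector) and SLC1A1, a glutamate and cysteine carrier, at 0.17 (113 with FDFT1 and 108 with control vector), with its second probe set at -0.23. SLC38A6 had 411 with FDFT1 and 412 with control vector, a difference of 0.10. The class had 11 members above 0 and 14 below, with a median of -0.10, and none past 1.5-fold. Among the 15 under the floor were SLC6A14, known from airway and other epithelia, SLC1A2, known from brain, and SLC38A3, known from liver.

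Lysosomal and vesicular carriers had 12 of 18 genes measured and 9 bright. SLC17A5, sialin, which releases sialic acid from the lysosome, had 1033 with FDFT1 and 982 with control vector, a difference of 0.18 with both probe sets above 0. SLC36A1, a proton-coupled exporter of small amino acids, was at -0.24 (438 with FDFT1 and 556 with control vector), and SLC18B1, a vesicular polyamine transporter, at 0.14 (322 with FDFT1 and 315 with control vector). SLC38A9, an arginine sensor of the mTORC1 pathway, had 247 with FDFT1 and 272 with control vector, a difference of -0.03. SLC38A7, the lysosomal glutamine exporter, was at -0.33 (189 with FDFT1 and 256 with control vector) and was below 0 on 4 of 4 probe sets, at -0.08 to -0.42. Among vesicular carriers of glutamate, GABA, monoamines and acetylcholine, SLC17A7 (37.9 with FDFT1 and 39.5 with control vector) and SLC18A2 (12.3 with FDFT1 and 25.6 with control vector) were measured and the others stayed under the floor. SLC18A2, a vesicular monoamine transporter, had the lowest difference of all members, -0.96, which is within 2 errors of 0.51. Over the class the median was -0.06.

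Sugar carriers had 17 of 27 genes measured and 8 bright on both arrays. SLC2A3, the high-affinity glucose transporter GLUT3, had signals of 4445 in FDFT1 cells and 4875 in control vector cells, a difference of -0.03, and its 3 probe sets lay between -0.03 and 0.01. All 3 are of kinds that can match several transcripts, and other probe sets of the array name SLC2A3 together with SLC2A14, so its value is uncertain. SLC37A3, of the sugar phosphate family of the endoplasmic reticulum, had 543 with FDFT1 and 509 with control vector, a difference of 0.20, and SLC5A3, the sodium-coupled myo-inositol carrier, 441 with FDFT1 and 466 with control vector, a difference of 0.03. SLC50A1 was at -0.15 (363 with FDFT1 and 433 with control vector), SLC2A8, an intracellular hexose carrier, at 0.23 (145 with FDFT1 and 133 with control vector) with its second probe set at -0.29, SLC45A4 at -0.25 (104 with FDFT1 and 133 with control vector) and SLC37A4, the glucose 6-phosphate carrier, at -0.09 (109.5 with FDFT1 and 126 with control vector). Dim members stood at the upper end: SLC2A5, the fructose carrier, was at 0.85 (26.0 with FDFT1 and 15.5 with control vector, error 0.51) and SLC5A11 at a bound of 0.79 (19.6 with FDFT1 and 8.71 with control vector). Of the class 12 members lay above 0 and 5 lay below it, and the median was 0.14. Under the floor were SLC2A2 and SLC2A4, the glucose transporters of liver and muscle, and SLC5A1, that of gut.

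Monocarboxylate and di- or tricarboxylate carriers were the least covered class, with 2 of 11 genes measured. SLC16A9 had 129 with FDFT1 and 106 with control vector, a difference of 0.38, and SLC16A5 84.7 with FDFT1 and 86.7 with control vector, a difference of 0.07. The lactate carriers SLC16A1 and SLC16A3 were not analysed here and are not among the 11 genes. Their chaperone BSG, basigin, was bright at 777 with FDFT1 and 993 with control vector, a difference of -0.25 on 1 probe set, and the related NPTN, neuroplastin, had 3389 with FDFT1 and 3003 with control vector, a difference of 0.28.

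Carriers of vitamins, choline and heme had 15 of 22 genes measured and 10 bright. SLC25A32, which brings folate or flavin into mitochondria, had 1228 with FDFT1 and 1027 with control vector, a difference of 0.36 with an error of 0.16 on 1 probe set. SLC19A1, the reduced folate carrier, had 734 with FDFT1 and 769.9 with control vector, a difference of 0.04 on its brightest probe set, while its 5 dimmer probe sets lay between -0.67 and -0.16. SLC52A2 for riboflavin was at -0.14 (519 with FDFT1 and 617 with control vector), SLC19A2 for thiamine at 0.39 (304 with FDFT1 and 249.7 with control vector, error 0.22) and SLC46A1, the proton-coupled folate carrier, at -0.27 (102 with FDFT1 and 132 with control vector). SLC5A6 for biotin and pantothenate had 499 with FDFT1 and 567 with control vector, SLC44A1 for choline 389 with FDFT1 and 449 with control vector, SLC23A2 for ascorbate 181 with FDFT1 and 217 with control vector and SLC48A1 for heme 158 with FDFT1 and 201 with control vector, with differences of -0.08, -0.10, -0.15 and -0.24. Each of these vitamins, and choline and heme, thus had a carrier above 99.4 on both arrays. The median of the vitamin carriers was -0.10, with 5 members above 0 and 10 below.

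Zinc carriers had 19 of 23 genes measured and 13 bright on both arrays, spread over import and export. SLC39A6, a zinc importer of the plasma membrane, had 2867 with FDFT1 and 3001 with control vector, a difference of 0.04. SLC39A3, another importer, was lower at 815 in FDFT1 cells against 1101 in control vector cells, a difference of -0.33 with an error of 0.16, and 3 of 3 probe sets were below 0. On the efflux side, SLC30A9 had 831 with FDFT1 and 845 with control vector, a difference of 0.08, and SLC30A1, the zinc exporter of the plasma membrane, 274 with FDFT1 and 261 with control vector, a difference of 0.18; both probe sets of each were above 0. SLC39A11 was at -0.43 (89.1 with FDFT1 and 129 with control vector, error 0.31). SLC30A3, the zinc carrier of synaptic vesicles, was at -0.56 (41.4 with FDFT1 and 65.7 with control vector) and SLC39A5 at a bound of -0.78 (9.49 with FDFT1 and 20.9 with control vector). The median of the zinc carriers was -0.03, with 7 members above 0 and 12 below.

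All 11 carriers of iron, copper, magnesium and manganese on the array were measured, and 7 were bright on both. SLC39A14, which takes up iron, manganese and zinc, had 2877 with FDFT1 and 2693 with control vector, a difference of 0.20 with an error of 0.10, while the mean with its second probe set was 0.03. SLC11A2, the divalent metal transporter of the endosome, had 508 with FDFT1 and 547 with control vector, a difference of 0.00071, and SLC25A28, which brings iron into mitochondria, 475 with FDFT1 and 553 with control vector, a difference of -0.11. SLC31A1, the copper importer CTR1, was at 0.31 (364 with FDFT1 and 316 with control vector, error 0.22), but its other probe sets lay at -0.70 and 0.38, and the mean of its probe sets was -0.0044. SLC31A2 was at -0.12 (148 with FDFT1 and 173 with control vector), SLC41A1 for magnesium at 0.03 (293 with FDFT1 and 309 with control vector) and SLC40A1, ferroportin, the iron exporter, at 0.34 at low signals (37.0 with FDFT1 and 31.6 with control vector). The class median was 0.03, with 7 above 0 and 4 below.

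Among carriers of sodium, potassium, calcium, protons and chloride, 14 of 24 genes were measured and 3 were bright on both arrays. SLC12A2, the sodium, potassium and chloride cotransporter NKCC1 of epithelia, had 528 with FDFT1 and 527 with control vector, a difference of 0.11. SLC12A7, a potassium and chloride cotransporter, had 258 with FDFT1 and 308 with control vector, a difference of -0.15, and its relative SLC12A4 91.2 with FDFT1 and 120.1 with control vector, a difference of -0.29, where 3 of 4 probe sets lay the other way. SLC9D1, also named TMCO3, had 548 with FDFT1 and 545 with control vector, a difference of 0.12, and SLC9A5, a sodium and proton exchanger, was at 0.72 at low signals (31.1 with FDFT1 and 20.4 with control vector). The class median was 0.04, with 7 members on each side of 0. Of the sodium pump that sets up the gradient these carriers use, the beta subunits ATP1B1 and ATP1B3 had 325 with FDFT1 and 339 with control vector and 3144 with FDFT1 and 3255 with control vector, with differences of 0.05 and 0.06.

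For bicarbonate, sulphate, phosphate and other anions, 17 of 25 genes were measured and 6 were bright. SLC20A1, a sodium-coupled phosphate importer, had 1321 with FDFT1 and 1470.4 with control vector, a difference of -0.05. SLC4A2, the chloride and bicarbonate exchanger AE2, was at -0.26 on 1 probe set (449 with FDFT1 and 579.9 with control vector, error 0.16), and SLC26A2, the sulphate carrier, at 0.02 (432 with FDFT1 and 457 with control vector). The other probe sets of SLC26A2 lay at -0.44 and 0.61. SLC4A7, a sodium and bicarbonate cotransporter, was at 0.26 (172 with FDFT1 and 155 with control vector) with 2 of 3 probe sets below 0.

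SLC26A4, pendrin, a chloride, iodide and bicarbonate exchanger known from thyroid, inner ear and kidney, was the single member past 2-fold. Its signals were 46.5 in FDFT1 cells against 23.4 in control vector cells, a difference of 1.10 or 2.14-fold higher, with an error of 0.31. The signal comes from 1 probe set whose name ends in _x_at, a class that can match other transcripts, and with probe sets of that kind left out the gene has no value. As deposited, before the arrays were put at an equal level, its difference was 0.99. SLC5A5, the iodide carrier of thyroid, was next at a bound of 0.93 (21.6 with FDFT1 and 1.82 with control vector, error 0.51). The class median was -0.02, with 7 above 0 and 10 below.

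**Figure D3:**
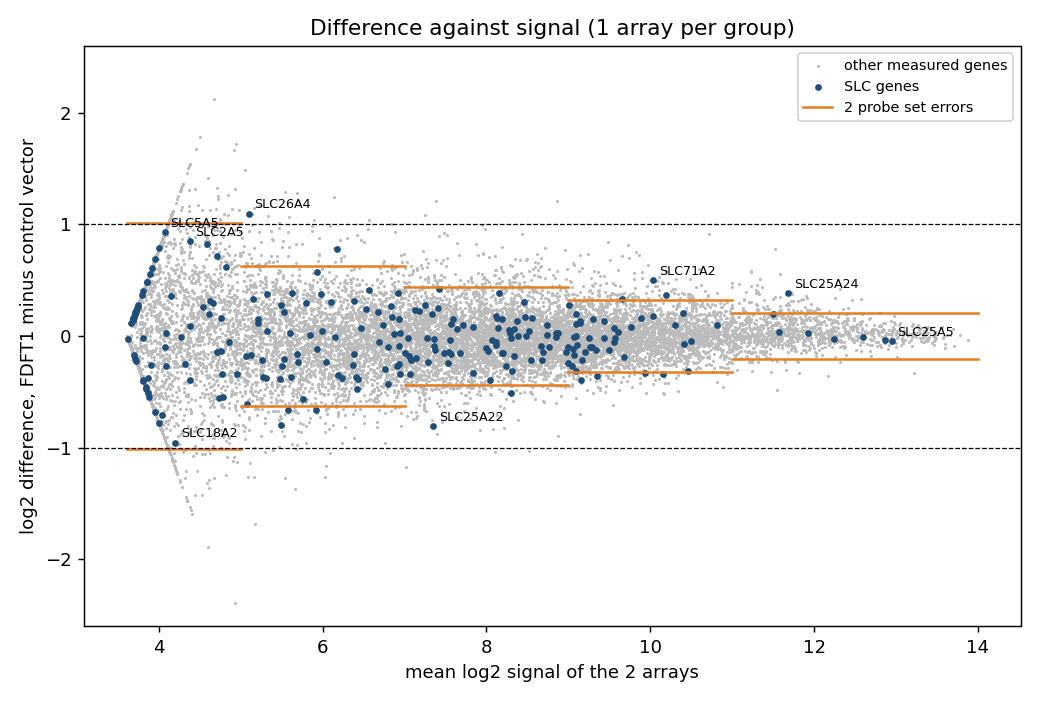
Log2 difference (FDFT1 minus control vector) of each gene against its mean log2 signal, with SLC genes in blue and other measured genes in grey. Orange steps mark 2 probe set errors and dashed lines a 2-fold difference; SLC26A4 lies above the upper dashed line at a low signal, SLC25A22 stands below its step, and among the bright members SLC25A24 stands above its step at 0.39.

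The nucleotide sugar carriers, which feed the glycosyltransferases of the Golgi, were all measured, 8 of 8, and 7 were bright on both arrays. SLC35A2 for UDP-galactose had 717 with FDFT1 and 735 with control vector, a difference of 0.07, with the other 2 probe sets below 0. SLC35A3 for UDP-N-acetylglucosamine had 459 with FDFT1 and 529 with control vector, a difference of -0.10, and a second bright probe set at 0.53. SLC35B4 had 399 with FDFT1 and 426 with control vector, a difference of 0.01, and SLC35A1 for CMP-sialic acid 268 with FDFT1 and 275 with control vector, a difference of 0.07. SLC35B3, which carries the sulphate donor, had 293 with FDFT1 and 303 with control vector, a difference of 0.06. SLC35D2 was at 0.28 (156 with FDFT1 and 139 with control vector) with the other 2 probe sets below 0, and SLC35C1 for GDP-fucose was at 0.38 (66.8 with FDFT1 and 55.4 with control vector) with both above. The other probe sets of SLC35B4 were below 0. The class had 7 members above 0 and 1 below, with a median of 0.07, where 49.2% of all measured genes were above 0. In the deposited signals SLC35A1, SLC35A2, SLC35A3, SLC35B3 and SLC35B4 were lower with FDFT1. The split thus depends on the arrays being put at an equal level.

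SLC35 members with no assigned cargo here had 14 of 18 genes measured and 11 bright. SLC35B1, described as an exchanger of ATP and ADP in the endoplasmic reticulum, had 1230.2 with FDFT1 and 1392 with control vector, a difference of -0.07. SLC35F5 was at 0.34 (841 with FDFT1 and 717 with control vector, error 0.16), where the other probe sets lay at -0.14 and 0.79. SLC35A4 was at -0.39 on 1 probe set (460.1 with FDFT1 and 650.1 with control vector) and SLC35H1, also named SLC35C2, at -0.36 (538 with FDFT1 and 741 with control vector) with both probe sets below 0, each beyond 2 errors of 0.16. SLC35F1, dim, was at 0.82 (29.8 with FDFT1 and 18.1 with control vector, error 0.51). The median was -0.0086, with 7 members on each side of 0.

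Nucleoside carriers had 2 bright members, both equilibrative. SLC29A1, ENT1, which also takes up nucleoside drugs, had 712 with FDFT1 and 871 with control vector, a difference of -0.18 with both probe sets below 0, and SLC29A2, ENT2, 165 with FDFT1 and 196 with control vector, a difference of -0.14 with 3 of 3 below 0. SLC29A3, of the lysosome, was at 0.28 (46.0 with FDFT1 and 40.8 with control vector), and SLC28A3, a concentrative carrier, at a bound of -0.68 (10.4 with FDFT1 and 19.6 with control vector). The median of the 5 measured genes of 10 was -0.14, and both urea transporters were under the floor.

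Carriers and activators of fatty acids, bile acids and acetyl-CoA had 8 of 14 genes measured and 5 bright. SLC10A4 had 561 with FDFT1 and 648 with control vector, a difference of -0.10, and SLC10A3 172 with FDFT1 and 190.2 with control vector, a difference of -0.04. Both were placed here with the rest of the SLC10 family, which does not show that they carry bile acids. SLC33A1, the acetyl-CoA carrier of the endoplasmic reticulum, was at 0.16 (189 with FDFT1 and 183 with control vector), and SLC27A4, a fatty acid transport protein, at -0.34 (111 with FDFT1 and 150.2 with control vector, error 0.22). The other probe sets of SLC33A1 lay at -0.20 and 0.35. The bile acid carriers SLC10A1 and SLC10A2 of liver and gut were under the floor, and the class median was -0.07, with 3 above 0 and 5 below.

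Transporters of neurotransmitters and organic ions were mostly dim: 17 of 33 were measured and 2 were bright. SLC47A1, an exporter of organic cations, had 259.6 with FDFT1 and 311 with control vector, a difference of -0.16, and SLC22A5, the carnitine carrier OCTN2, 122 with FDFT1 and 133 with control vector, a difference of -0.02. SLC22A17 had 65.5 with FDFT1 and 71.1 with control vector, a difference of -0.01. Members at the extremes lay under a signal of 99.4: SLC22A7 at -0.70 (12 with FDFT1 and 21.0 with control vector), SLC22A23 at -0.60 (25.4 with FDFT1 and 41.6 with control vector) and SLC22A14 at 0.62 (32.6 with FDFT1 and 22.8 with control vector). The class median was -0.0075, with 8 above 0 and 9 below. Of the other drug transporter families, SLCO4A1 was bright at 275 with FDFT1 and 327 with control vector among 4 measured of 11 SLCO genes, and of the ABC exporters ABCC1 had 421 with FDFT1 and 462 with control vector and ABCC4 607 with FDFT1 and 631 with control vector, with differences of -0.03 and 0.05.

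Members with no substrate assigned here had the lowest class median, -0.36, with 4 of 13 above 0 and 9 below. SLC71A1 and SLC71A2, also named MFSD14A and MFSD14B, had 1344 with FDFT1 and 1252 with control vector and 1161 with FDFT1 and 883 with control vector, with differences of 0.21 and 0.50; the second lay beyond 2 errors of 0.16. SLC61A1, also named MFSD5, had 689.6 with FDFT1 and 768 with control vector, a difference of -0.05. SLC75A1, also named MFSD10, was at -0.51 (246 with FDFT1 and 377 with control vector, error 0.22), SLC33A2, also named MFSD3, at -0.66 (44.8 with FDFT1 and 76.1 with control vector, error 0.31) and SLC67A1, also named SLC22A18, at -0.66 (35.3 with FDFT1 and 60.1 with control vector, error 0.31), each on 1 probe set. With the floor at 99.4, which keeps 7 of the 13, the median of this class was -0.019.

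The 16 members that are not transporters by name include antisense RNAs and neighbours. SLC4A1AP, an adaptor protein, had 671 with FDFT1 and 658 with control vector, a difference of 0.13. SLC2A4RG, a regulator of SLC2A4, had 455 with FDFT1 and 608 with control vector, a difference of -0.31, with its other probe sets at 0.14 and -0.32. SLC7A6OS had 334 with FDFT1 and 358 with control vector, a difference of 0.0047. SLC16A1-AS1 was at 0.78 (88.2 with FDFT1 and 55.1 with control vector, error 0.31) with 2 of 3 probe sets above 0, SLC38A2-AS1 at a bound of 0.69 (18.3 with FDFT1 and 9.63 with control vector) and SLC38A4-AS1 at a bound of 0.61 (17.3 with FDFT1 and 6.66 with control vector). Their differences describe these transcripts and not the carriers whose symbols they bear.

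**Figure D4:**
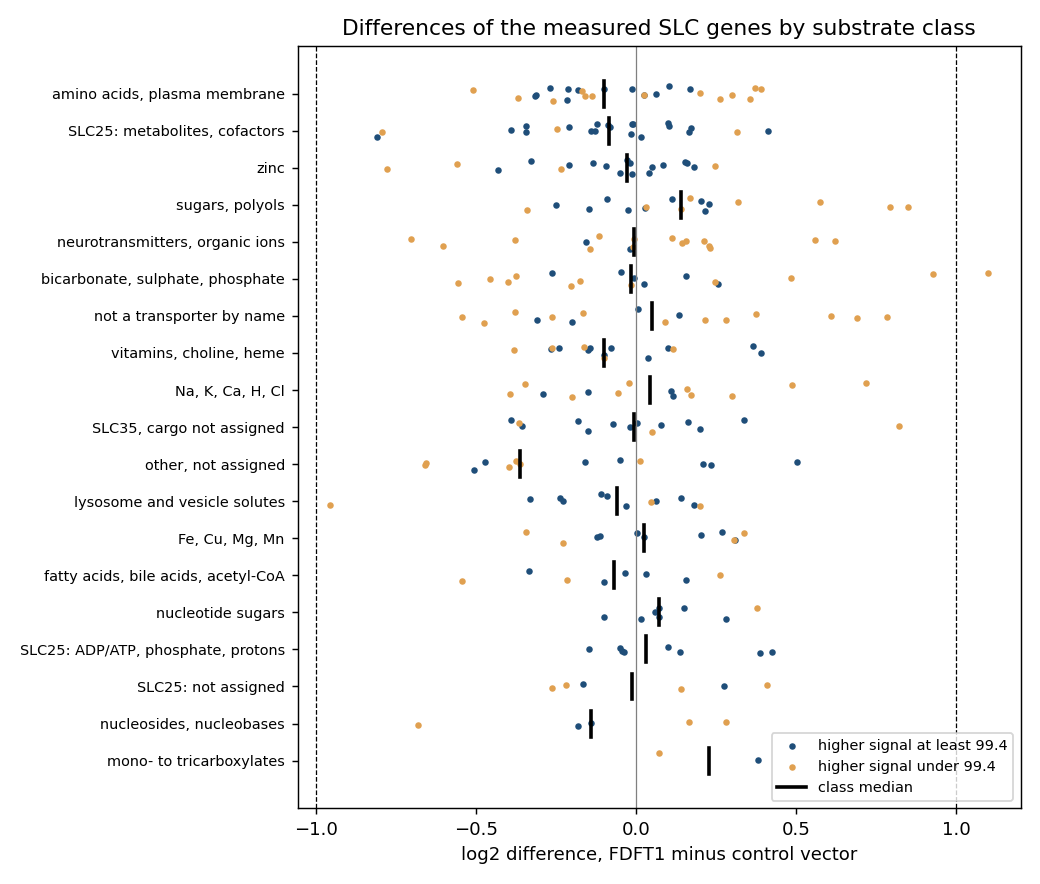
Log2 differences (FDFT1 minus control vector) of the 249 measured SLC genes by substrate class, blue where the higher signal is at least 99.4 and orange below it, with the class median as a black bar. Dashed lines mark 2-fold; the medians run from -0.36 for members with no substrate assigned to 0.23 for the 2 carboxylate carriers, and the points furthest from 0 are mostly orange.

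Over all 249 members the differences centred on 0, as they did for the array. Their median was -0.02 and their SD 0.32, against -0.0047 and 0.32 for all 12952 measured genes. Of the members 117 (47.0%) were above 0 and 132 (53.0%) below, against 49.2% and 50.8% of all genes. With the values as deposited, 85 members were above 0 and 164 below. All genes were not counted by sign at this setting, so this split has no background beside it. The median of the members as deposited was -0.12, against -0.11 for all genes, as the whole array lay lower with FDFT1. At 1.5-fold, 10 members (4.02%) were higher with FDFT1 and 9 (3.61%) lower, against 4.18% and 3.44% of all genes. Of these 19, 18 had signals under 99.4 on both arrays, 17 rested on a single probe set and 6 had a signal under the floor after the arrays were put at an equal level. The 2 members past 1.5-fold with more than 1 probe set were SLC22A7 and SLC16A1-AS1. The second probe set of SLC22A7 was at a bound of -0.02 (0.782 with FDFT1 and 12.3 with control vector), and the other probe sets of SLC16A1-AS1 lay at 0.27 and -0.28. The share of SLC genes past 1.5-fold was thus near that of the whole array, and past 2-fold there was only SLC26A4.

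Of 111 members with at least 2 measured probe sets, the 2 brightest had the same sign in 60 (54.1%), against 55.1% of 6530 genes on the whole array. Their differences correlated with a Pearson r of 0.06 and a Spearman rho of 0.06 across these genes, which are not independent replicates, against 0.08 and 0.11 over all genes. Where both probe sets reached 99.4, the signs matched in 26 of 49 members (53.1%) with an r of -0.03, against 58.2% of 2993 genes with an r of 0.19. All measured probe sets were above 0 for 15 genes (13.5%) and below 0 for 31 (27.9%), against 19.7% and 21.3% of the 6530 genes. Among the brighter carriers, those with at least 3 probe sets all below 0 included SLC38A7, SLC39A3, SLC6A8, SLC23A2, SLC48A1 and SLC29A2. Their second probe sets differed by as much as -0.66 for SLC29A2 and as little as -0.08 for SLC48A1. Brighter carriers on the other side were SLC35E1, with 6 of 6 probe sets above 0, and SLC35G1 and SLC35D1, with 3 of 3 each.

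**Figure D5:**
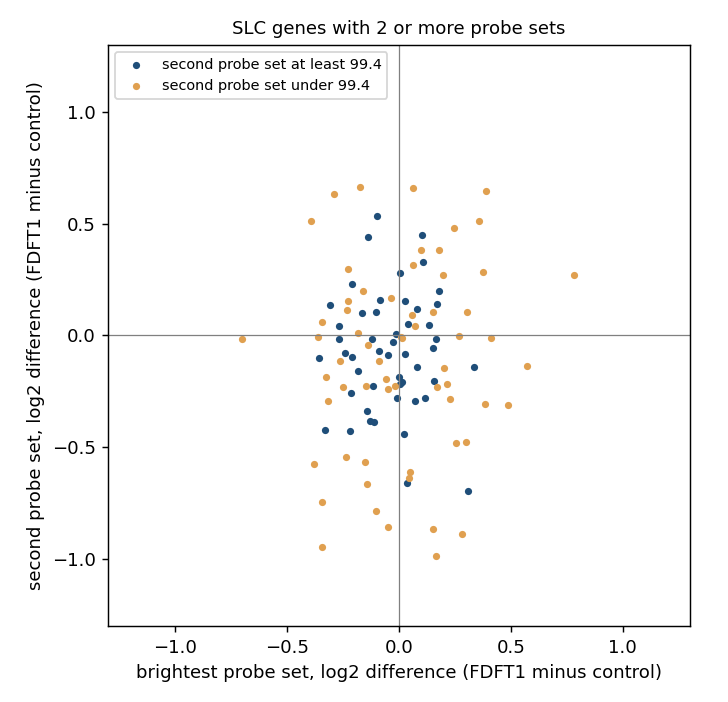
Log2 difference (FDFT1 minus control vector) of the second brightest probe set against that of the brightest for the 111 SLC genes with at least 2 measured probe sets, blue where the second has a mean signal of at least 99.4. Points fill all 4 quadrants, with the same sign on both axes in 60 genes.

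Probe sets on the 2 sides of the floor had like signals. Just inside it were probe sets of SLC49A3, with 12.3 in FDFT1 cells and 2.69 in control vector cells, SLC22A7, with 0.782 in FDFT1 cells and 12.3 in control vector cells, and SLC12A3, with 5.49 in FDFT1 cells and 12.4 in control vector cells. Just outside were those of SLC13A3, with 1.02 in FDFT1 cells and 12.18 in control vector cells, SLC6A2, with 12.1 in FDFT1 cells and 2.82 in control vector cells, and SLC44A4, with 9.71 in FDFT1 cells and 12.1 in control vector cells.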

How the data were processed

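Expression was measured in 2 samples of the CL1-0 line, FDFT1 and control vector, with 1 array each. The authors deposited linear signal intensities made with MAS5, per the submitters' processing notes; the labels state no version, scaling target or detection call. For arrays, their number limits the precision.

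From these, with pandas 2.3.3 under Python 3.11.15 (loess from statsmodels 0.14.6), 62 control probe sets were left out of 54675, the FDFT1 array was centred by the median log2 difference, signals were set to a floor of 12.2, and a gene took its brightest measured probe set. No test was run, as there are no replicates; the steps were tested on simulated data. Gene names came from the platform annotation; all 249 members matched the GRCh38.p14 gene table by Entrez identifier, and 26 probe sets naming an SLC gene among several were not used. Members, lists and classes were chosen with earlier results of these data known; the SLC35, SLC37, SLC66 and SLC5A5 assignments were edited once the array's symbols had been read. Named genes were, per class, the 3 brightest and the highest and lowest difference among those reaching 99.4 on at least 1 array; over all, the 10 highest, 10 lowest and 15 brightest, those past 1.5-fold with all of at least 2 probe sets of one sign, and 3 probe sets on each side of the floor. Other genes were added as examples after their values were seen. Alternatives were other scalings, floors, probe set rules and sizes.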

Additional observations from a re-analysis of the deposited data

How the results depend on the processing

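No paired analysis was possible because each group has 1 array. At the settings described, 1 member was at least 2-fold higher and 0 lower, of 249, against 86 and 85 of 12952 genes. The median of the members was -0.02. With values as deposited, 0 were higher and 1 lower, against 48 and 109 of 12952 genes. The median was then -0.12, as the whole array moved by the same 0.11. After quantile normalization 1 was higher and 1 lower, against 69 and 84 of 12952 genes. After loess 1 was higher and 1 lower, against 65 and 90. The lower member was SLC18A2 in both. With no floor, 46 of 371 were higher and 36 lower, as 2298 and 1896 of 19775 genes were. With the floor at 99.4, 140 members were measured and 0 were higher, against 3 of 8076 genes. The median of the class with no substrate assigned was then -0.019, a bound set by that floor. Without _x_at and _s_at probe sets 0 were higher and 0 lower, against 81 and 72 of 10171 genes. At 1.5-fold 10 were higher and 9 lower, against 541 and 445 of 12952 genes. At 3-fold 0 were higher, against 5. Averaging all probe sets per gene left 1 higher, against 64 of 12952 genes, and 14 of 95 named genes moved by more than their error. SLC35D2 was then at -0.31, SLC12A4 at 0.27, SLC4A7 at -0.11 and SLC20A1 at -0.45. That mean had the other sign for 29 of the 111 members with at least 2 probe sets. Those named that are not given so far were SLC25A3 (0.06), SLC39A6 (-0.03), SLC25A13 (-0.0023), SLC44A1 (0.05), SLC35B4 (-0.13), SLC7A6OS (-0.11), SLC2A8 (-0.03), SLC1A1 (-0.03), SLC16A5 (-0.0087) and SLC17A7 (-0.30), and SLC38A1 (-0.17), SLC19A1 (-0.37), SLC35A2 (-0.20), SLC35A3 (0.23) and SLC31A1 (-0.0044). No class median other than the one given moved by more than a probe set error. Below a mean log2 signal of 5 the probe set error was 0.51, so that differences under 1 lay within 2 such errors. With 1 array per group no limit of detection can be given at any signal.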
